A study of Bos taurus with 3 samples.

Results

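AP-1, EGR1 and SRF are transcription factors through which fibroblasts respond to serum, and their genes were examined here in BFF116 cells, bovine fetal fibroblasts prepared as nuclear donors for cloning. The genes were taken by symbol from the deposited count table: the FOS family (FOS, FOSB, FOSL1, FOSL2), the JUN family (JUN, JUNB, JUND), ATF3, EGR1 and SRF, 10 of 31903 listed genes. All of the libraries belonged to 1 group of 3 replicates, in which cells were held without serum for 48 h and then snap-frozen. No serum-fed or restimulated cells were measured, so the levels below describe starved cultures and are not compared with another serum state.

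AP-1 is a dimer of leucine-zipper proteins. FOS proteins need a JUN partner to bind DNA, whereas JUN proteins can also pair with each other or with ATF3. SRF sits on serum response elements, and with its cofactors it switches on FOS, EGR1 and many actin cytoskeleton genes when serum returns to resting fibroblasts. FOS, JUN, JUNB and EGR1 are classic immediate early genes, transcribed within minutes of the stimulus into messages that are then rapidly degraded.

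Gene counts summed to 8608350 in replicate 1, 4842331 in replicate 2 and 7122651 in replicate 3. Reads that the counting assigned to no feature made up 59.2, 58.9 and 62.0% of the counted reads, and may include reads within introns or on the other strand of a gene. The replicates are called biological in the labels, which do not name their cultures or animals. The p-values of the spread test set each gene's spread between these samples against the usual spread, part of which may be technical. Levels are given in CPM, reads per 1000000 gene reads after scaling between libraries, and a gene was called measured when no library was below 1 CPM. Fibroblast markers were measured in 5 of 5 cases, with summed levels of 29252 to 30375 CPM. Epithelial markers had 0 of 5 (summed 1.07 to 4.23 CPM, EPCAM at 0 reads) and skeletal muscle markers 0 of 3 (0.475 to 1.61 CPM, MYOD1 and DES at 0). Leukocyte markers had 2 of 4 (4.03 to 9.01 CPM, PTPRC at 0), endothelial markers 2 of 3 (5.64 to 12.2 CPM) and neural markers 3 of 4 (15.3 to 23.5 CPM).

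Of the 10 factor genes, 9 were measured, against 34.6% of all listed genes. FOSB was the exception. CPM is not corrected for transcript length, so the order of 2 genes' values also carries their lengths and is not read as an order of abundance. The median of the 9 genes' mean CPM was 24.6, beside 23.1 for the 10434 genes that had 10 or more reads in every library and entered the test of spread. In bulk RNA, fewer cells expressing a gene and less RNA per expressing cell cannot be told apart.

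FOS, the founding member of its family, had 169, 110 and 246 reads in replicates 1 to 3, which gave 20.1, 22.2 and 34.6 CPM. Replicate 3 stood above the other libraries, which lay close together. The mean was 25.6 ± 7.86 CPM (SD, n = 3). FOSL2, which encodes FRA2, had 105, 105 and 234 reads, or 12.5, 21.2 and 32.9 CPM, with a mean of 22.2 ± 10.3 (SD, n = 3). Replicate 3 was its highest library, at 2.64-fold replicate 1, the lowest. FOSL1, which encodes FRA1, had 79, 42 and 89 reads, or 9.38, 8.46 and 12.5 CPM, with a mean of 10.1 ± 2.13 (SD, n = 3).

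FOSB, the remaining FOS family gene, had 1, 0 and 2 reads. The 0 in replicate 2 allows up to 0.605 CPM, if reads could be assigned to the gene at all. Of its 4 nearest protein-coding neighbours in the RefSeq annotation of assembly ARS-UCD2.0, POLR1G was not analysed here and 3 had reads: ERCC1, a DNA repair gene, had 86, 81 and 105, RTN2 had 52, 27 and 56, and PPM1N had 16, 20 and 61. FOSB held, of all FOS family reads, 0.282% in replicate 1 (exact 95% binomial interval 0.00715 to 1.56%) and 0.350% in replicate 3 (0.0424 to 1.26%).

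JUN, the central AP-1 subunit, had 344, 281 and 511 reads, or 40.9, 56.6 and 71.9 CPM, and a mean of 56.5 ± 15.5 (SD, n = 3). Replicate 1 was lowest and replicate 3 highest. JUNB, a family member that can restrain JUN in some settings, had 91, 127 and 345 reads, or 10.8, 25.6 and 48.5 CPM. None of the other 8 measured factor genes was so unevenly spread: replicate 3 was 4.49-fold replicate 1, with replicate 2 between them. The mean of JUNB, 28.3 ± 19.0 (SD, n = 3), became 18.2 CPM when replicate 3 was left out.

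JUND, the family member usually present in resting cells, had 72, 53 and 101 reads, or 8.55, 10.7 and 14.2 CPM, with a mean of 11.1 ± 2.86 (SD, n = 3). In RefSeq ARS-UCD2.0 it was the 1 factor gene that overlapped another gene, IQCN, which was not analysed here. As the strand setting of the counting is not given, reads from the overlap may be missing from JUND or shared with its neighbour.

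ATF3, a stress-inducible factor that can pair with JUN, had another order of libraries. It had 203, 146 and 143 reads, or 24.1, 29.4 and 20.1 CPM, so that replicate 3 was its lowest library. The mean was 24.6 ± 4.67 CPM (SD, n = 3).

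EGR1, a zinc-finger factor and target of SRF, had more reads than any other factor gene: 1682, 1352 and 2726. These gave 199.8, 272 and 384 CPM and a mean of 285 ± 92.6 (SD, n = 3), with replicate 3 at 1.92-fold replicate 1. SRF itself had 139, 104 and 157 reads, or 16.5, 21.0 and 22.1 CPM. Its libraries differed least among the 9 genes, by 1.34-fold between highest and lowest, and the mean was 19.9 ± 2.95 (SD, n = 3).

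**Figure D1:**
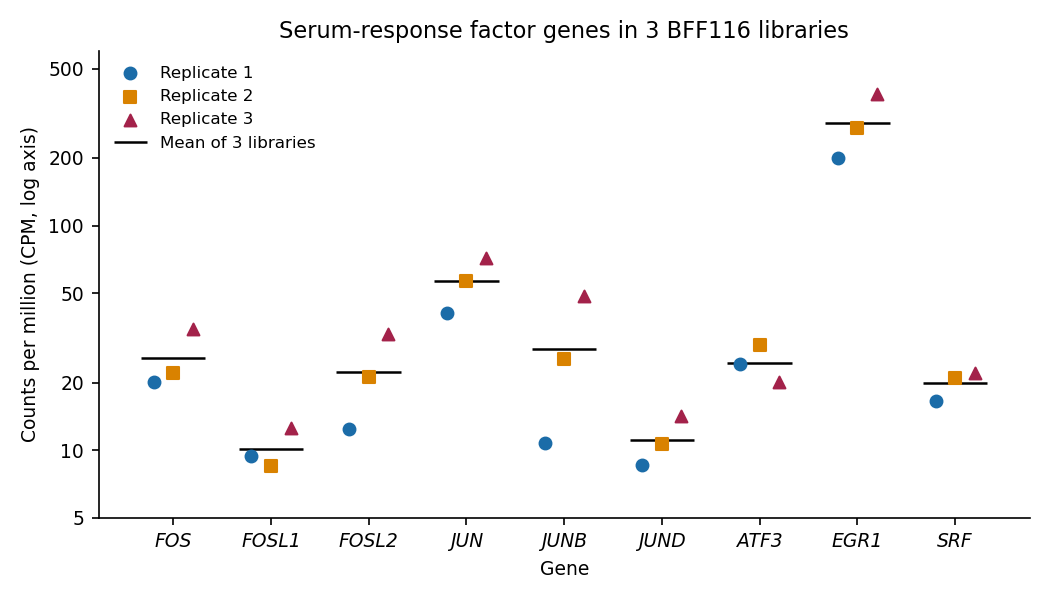
CPM (log axis) of 9 serum-response factor genes in replicates 1 to 3, with a bar at the mean of the 3 libraries; FOSB, with 1, 0 and 2 reads, is not drawn. Replicate 3 is the highest point for every gene drawn except ATF3, from SRF, where the points nearly meet, to JUNB, where they lie 4.49-fold apart.

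The factor genes shared an order of libraries. Among the 9 genes, 8 were highest in replicate 3, against 36.3% of the 10434 genes tested, and 7 were both highest in replicate 3 and lowest in replicate 1, against 25.9%. The exceptions to the second count were FOSL1, lowest in replicate 2, and ATF3, highest in replicate 2. A difference of 2-fold or more between replicates 3 and 1 was seen in 2 of 9 genes, JUNB and FOSL2, both higher in replicate 3, against 9.06% of all genes tested, and 0 of 9 were lower by as much, against 9.12%. These counts describe 3 libraries of 1 group, and genes within a library are not independent.

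The median log2 ratio of replicate 3 over replicate 1 was 0.79 for the 9 genes and 0.01 for all genes tested. Summed over the 10 genes, the level was 343, 468 and 641 CPM in replicates 1 to 3. Of this EGR1 alone made 199.8, 272 and 384 CPM, the largest part. The JUN family made 60.2, 92.9 and 135 CPM, and the FOS family 42.0, 51.8 and 80.3 CPM, so both families had the same order of libraries. Gene counts were highest in replicate 1 and lowest in replicate 2. The share of reads assigned to no feature was highest in replicate 3, where the factor genes were high, and so were the summed leukocyte and neural markers, at 9.01 and 23.5 CPM. The part of depth, unassigned reads or these cell types in the result was not tested.

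**Figure D2:**
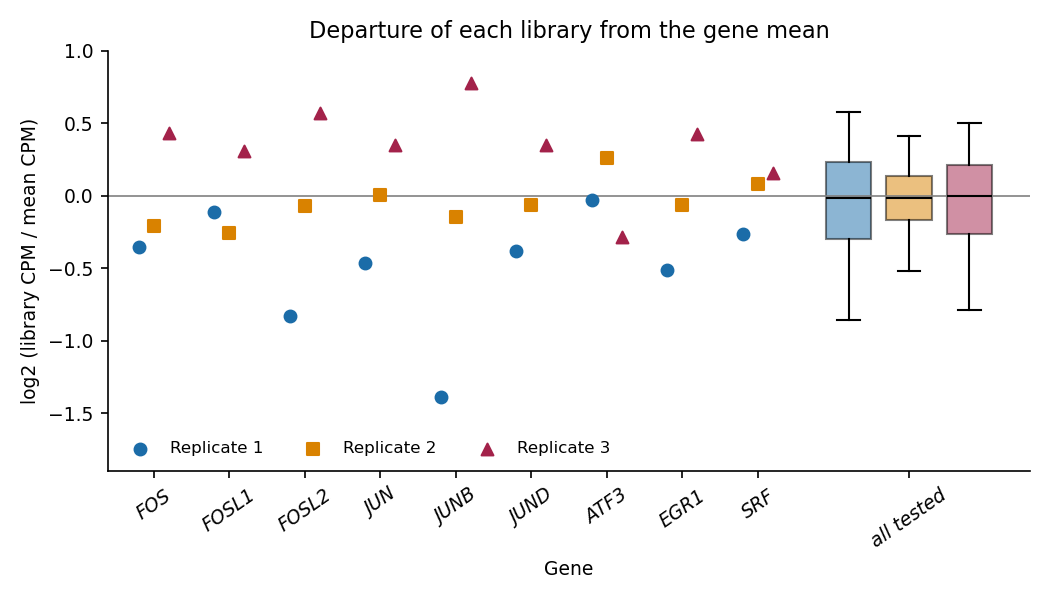
Departure of each library from the gene's own mean, as log2 of library CPM over mean CPM, for the 9 genes and, at the right, for all 10434 genes tested (box, quartiles; line, median; whiskers, 5th to 95th percentiles). The factor genes of replicate 3 lie above 0 except ATF3, those of replicate 1 lie below 0, and the medians over all genes lie near 0 in every library.

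Whether these departures exceeded the usual spread between the libraries was tested for all 10434 genes at the same time. The common biological coefficient of variation between the 3 libraries was 0.273. With edgeR's trended dispersion and a negative binomial Pearson statistic, 0 of 9 factor genes were more variable than the trend at an adjusted p under 0.05, against 0.0192% of all genes tested. At an unadjusted p under 0.05 there was 1 of 9, JUNB, against 5.24%.

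JUNB had a Pearson statistic of 12.6 on 2 degrees of freedom, which in this edgeR-based test gave p = 0.00185 and, after Benjamini-Hochberg adjustment over all genes, 0.288. It therefore did not pass. Of all genes tested, 1.01% had a larger ratio between their highest and lowest library. The same share was 9.70% for FOSL2, 27.8% for EGR1, 35.2% for JUN and 37.2% for FOS. It was 41.0% for JUND, 55.3% for FOSL1, 57.1% for ATF3 and 69.4% for SRF. For FOSL2 the unadjusted p was 0.0683 and for EGR1 0.107, and for the other 6 genes it lay between 0.280 for JUN and 0.769 for SRF in this edgeR-based test.

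**Figure D3:**
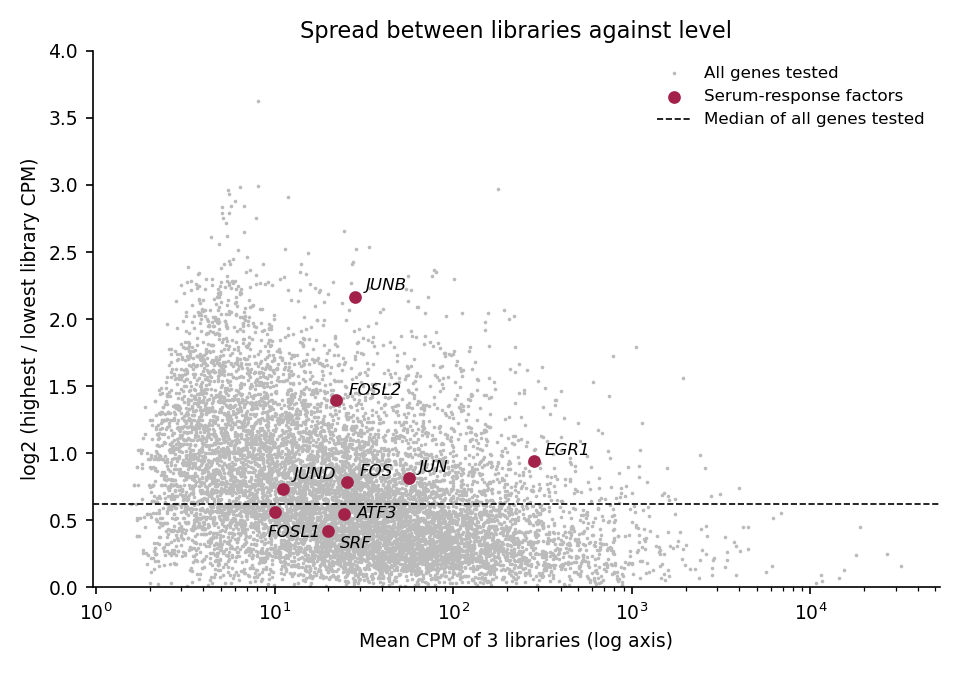
Ratio of the highest to the lowest library (log2) against mean CPM (log axis) for all 10434 genes tested in grey and the 9 factor genes in red, with the median of all genes dashed. JUNB at 2.17 and FOSL2 at 1.40 lie above that median, while SRF at 0.42, ATF3 and FOSL1 lie below the median of 0.62.

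Ratios of reads between 2 factor genes of the same library were followed next, because transcript length cancels when such a ratio is compared between libraries. Within the JUN family the makeup of the reads differed between libraries by more than counting error. The intervals below leave out the usual spread between libraries, and how often other gene pairs differ so was not counted. The ratio of JUNB to JUN reads was 0.265 in replicate 1 (exact 95% binomial interval 0.208 to 0.334), 0.452 in replicate 2 (0.364 to 0.559) and 0.675 in replicate 3 (0.587 to 0.775), and none of these intervals overlapped. JUNB thus held 17.9, 27.5 and 36.1% of JUN family reads, and JUN held 67.9, 61.0 and 53.4%. The ratio of JUND to JUN, in contrast, was 0.209, 0.189 and 0.198, with intervals that all overlapped.

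ATF3 also parted from JUN. The ratio of ATF3 to JUN reads was 0.590 in replicate 1 (0.494 to 0.704), 0.520 in replicate 2 (0.422 to 0.637) and 0.280 in replicate 3 (0.231 to 0.337), so replicate 3 lay below the others. The intervals of this and the other pairs cover counting error only, and PCR copies cannot be told from separate molecules here. They do not cover the spread between libraries, whose common biological coefficient of variation was 0.273.

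In the FOS family the ratio of FOSL2 to FOSL1 was 1.33 in replicate 1 (0.983 to 1.80), 2.50 in replicate 2 (1.73 to 3.67) and 2.63 in replicate 3 (2.05 to 3.40). Only the intervals of replicates 1 and 3 were apart. The ratio of FOSL2 to FOS was 0.621, 0.955 and 0.951, and that of FOSL1 to FOS 0.467, 0.382 and 0.362, each with overlapping intervals. FOS held 47.7, 42.8 and 43.1% of FOS family reads, and FOSL2 held 29.7, 40.9 and 41.0%.

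EGR1 and FOS kept a like ratio. There were 9.95, 12.3 and 11.1 EGR1 reads for each FOS read, with overlapping intervals that ran from 8.49 to 15.1 in all. Against SRF, the ratio of EGR1 was 12.1 (10.2 to 14.5) in replicate 1, 13.0 (10.6 to 16.0) in replicate 2 and 17.4 (14.8 to 20.5) in replicate 3, and the intervals of replicates 1 and 3 did not overlap. On the log2 scale, EGR1 over FOS was 3.44 ± 0.15 and EGR1 over SRF 3.77 ± 0.28 (SD, n = 3). JUNB over JUN was -1.19 ± 0.66, JUND over JUN -2.28 ± 0.08, ATF3 over JUN -1.16 ± 0.57 and FOSL2 over FOSL1 1.01 ± 0.54 (SD, n = 3). For each of the 8 pairs the exact two-sided sign-flip permutation test gave p = 0.25, the smallest that 3 libraries allow. This test sets a ratio against equal reads, which transcript length also moves. As each pair had the same sign in every library, the value was fixed, and no conclusion is drawn from it. Changes of a ratio between libraries were not tested by it.

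**Figure D4:**
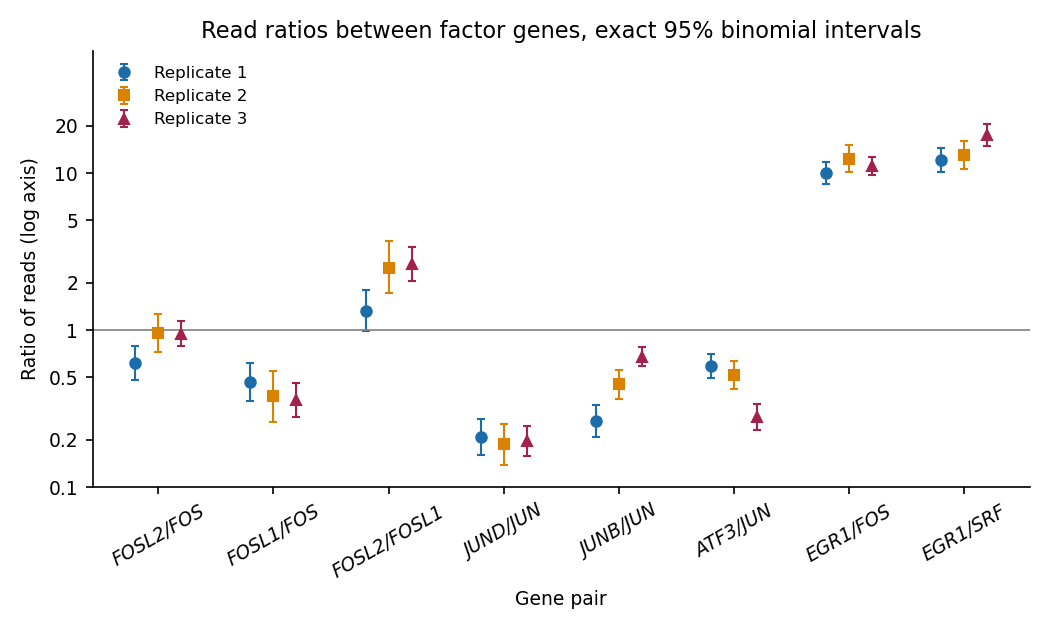
Ratio of reads (log axis) for 8 pairs of factor genes in replicates 1 to 3, with exact 95% binomial intervals for counting error; the grey line marks equal reads. JUND/JUN and EGR1/FOS stay level across libraries, whereas JUNB/JUN is lowest and ATF3/JUN highest in replicate 1.

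The genes nearest to EGR1 were sought by level as well as by order of libraries. Genes of much lower level, such as FOS, could not be among them. By the smallest distance in log2(CPM + 0.5) over the 3 libraries, the nearest was RPL36, a ribosomal protein gene, at 0.16. LOC616111, not characterized here, followed at 0.18, and MRC2, a collagen-binding endocytic receptor gene, at 0.19. RPL36 stood at 194, 268 and 345 CPM, and MRC2 at 183, 265 and 347 CPM. With 3 libraries of 1 group, this likeness is of level and order only, and RPL36 may have lost reads with several alignments.

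The other genes that act with these factors were mostly expressed. Of 15 further leucine-zipper genes, some of whose proteins can pair with AP-1 subunits, 10 were measured. The highest were ATF4 (714 ± 45.1 CPM), an effector of amino acid stress, and NFE2L2 (213 ± 48.6), the regulator of the antioxidant response. NFE2L1 (99.8 ± 17.1) and ATF2 (62.1 ± 6.81) followed. BATF, BATF3 and MAFK had 0 reads, BATF2 had 1, 0 and 2, and CREM, a cyclic AMP responsive factor, had 3, 7 and 7. Of the tested genes of this list, 4 of 10 were highest in replicate 3, near the 36.3% of all genes tested. The median log2 ratio of replicate 3 over replicate 1 was -0.06.

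Of 5 genes listed for the EGR family and its corepressors, 4 had counts and 3 were measured. EGR2 had no entry among the genes counted and was not analysed here. NAB1, a corepressor of EGR proteins, stood at 58.8, 34.9 and 30.8 CPM and was lowest where EGR1 was highest. NAB2, which acts likewise, stood at 4.40, 7.46 and 6.61 CPM. EGR3 had 11, 8 and 16 reads and EGR4 0, 0 and 1.

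Among SRF cofactors 6 of 7 were measured. ELK4 (54.0 ± 6.16 CPM) and ELK3 (35.2 ± 3.51) encode ternary complex factors, through which MAP kinases act on SRF, and MKL2 (35.2 ± 3.51) encodes an actin-regulated partner of SRF. FHL2, a cofactor of SRF and of AP-1, stood at 53.7 ± 9.70 CPM. MYOCD, the muscle-restricted SRF coactivator, had 0 reads. The median log2 ratio of replicate 3 over replicate 1 in this list was 0.16. In replicate 3, 4 of 6 genes were highest, against 36.3% of all genes tested.

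Most cytoskeletal targets of SRF were also highest in replicate 3. All 14 of 14 were measured. Of these, 11 of 14 were highest in replicate 3, against 36.3% of all genes tested, and 12 of 14 lowest in replicate 1, against 40.3%. The median log2 ratio of replicate 3 over replicate 1 was 0.74. The exceptions to the second count were ACTA2, lowest in replicate 2, and FHL1, lowest in replicate 3 at 85.9, 97.1 and 82.9 CPM. Only 2 of 14 were higher by 2-fold or more in replicate 3 than in replicate 1, against 9.06% of all genes tested. These were CNN1, a smooth muscle calponin, at 40.4, 68.3 and 94.4 CPM, and TAGLN, a smooth muscle actin-binding protein, at 185, 402 and 372 CPM. The members with most reads were ACTB (6188 ± 1152 CPM), ACTA2 (4029.6 ± 383), TPM1 (3974 ± 1133) and ACTG1 (3390.0 ± 346), and the actin genes may have lost reads that aligned to near-identical copies. None of the 14 passed the test of spread, and 0 of 14 had an unadjusted p under 0.05 with edgeR's dispersion.

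Other immediate early genes were all measured, 17 of 17 in the table. Of these, 11 of 17 were highest in replicate 3, against 36.3% of all genes tested, and 8 of 17 lowest in replicate 1, near the 40.3%. The median log2 ratio of replicate 3 over replicate 1 was 0.50. ZFP36, which encodes a protein that degrades AU-rich messages, had 34, 41 and 112 reads, or 4.04, 8.26 and 15.8 CPM. KLF6 stood at 144, 184 and 204 CPM, and DUSP1, a MAP kinase phosphatase, at 15.8, 16.9 and 25.6 CPM. Against this, PLK2 stood at 337, 323 and 306 CPM, and CTGF (2610.4 ± 242 CPM) was also lowest in replicate 3, while CYR61 (1443 ± 86.3) was highest there.

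Of 12 genes known as AP-1 targets, most of them for secreted or surface proteins, 7 were measured. TIMP1, an inhibitor of matrix metalloproteases, stood at 408, 564 and 576 CPM. CD44 (363 ± 28.7 CPM) and PLAUR (27.9 ± 4.63) followed. The collagenases and related proteases were at or near 0 reads, with MMP1 at 0, 0 and 1 reads, MMP3 at 0, 0 and 2, MMP9 at 3, 0 and 1 and MMP13 at 0, and the cytokine gene IL6 had 0, 0 and 4. Of the tested genes, 2 of 7 were highest in replicate 3, against 36.3% over the whole table. The median log2 ratio of replicate 3 over replicate 1 was 0.13.

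Upstream kinases and GTPases did not share 1 order of libraries. Of 19 genes, 18 were measured, and 7 of 18 were highest in replicate 3, near the 36.3% of all genes tested. The median log2 ratio of replicate 3 over replicate 1 was -0.14. MAPK3, a kinase that acts on the ternary complex factors, stood at 52.7, 96.1 and 111 CPM. MAPK8, the JUN kinase JNK1, stood at 103, 71.7 and 51.6 CPM, lowest where JUN was highest. RHOA (826 ± 17.5 CPM) and NRAS (322 ± 28.2) encode GTPases of the actin and MAP kinase branches. RPS6KA1, a kinase downstream of ERK, had 1, 5 and 1 reads.

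**Figure D5:**
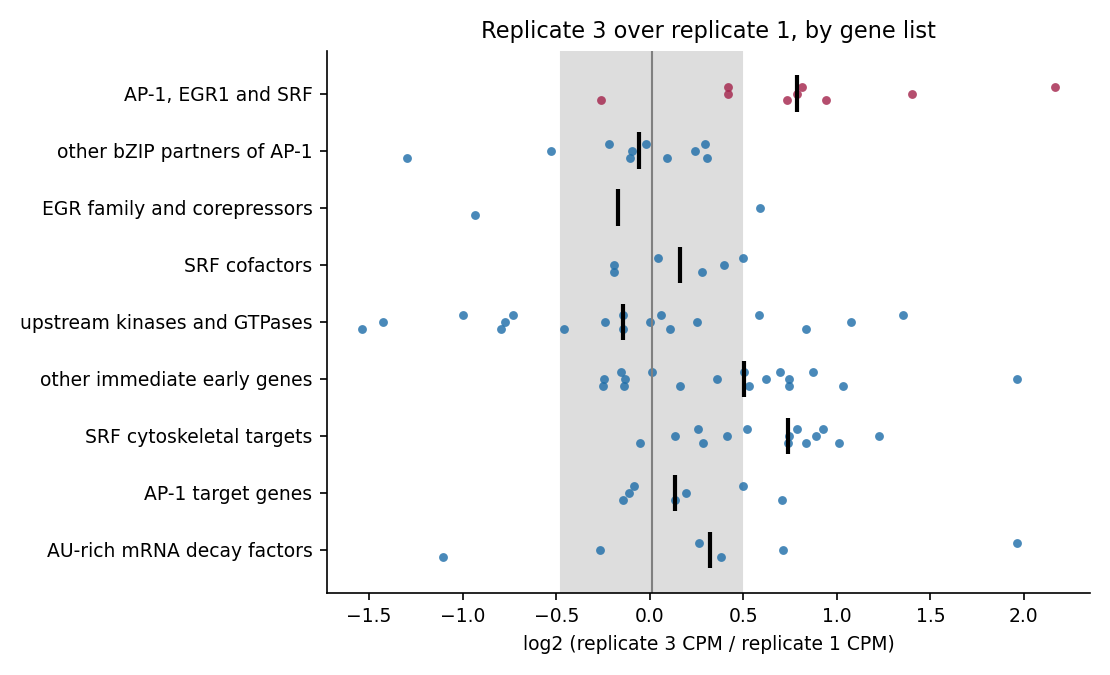
Log2 ratio of replicate 3 CPM over replicate 1 CPM for each tested gene of 9 lists (points) with the list median (black bar); the grey band spans the quartiles and the grey line the median of all 10434 genes tested. The factor genes (red, median 0.79) and the SRF cytoskeletal targets (median 0.74) lie mostly to the right of the band's centre, the kinases and GTPases on both sides of it.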

How the data were processed

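Total RNA of 3 replicates was amplified by single-primer isothermal amplification (NuGEN Ovation RNA-Seq) and sequenced as single reads of 100 bases, per the labels' protocols. The authors deposited whole-number read counts per gene symbol, not normalized. The submitters' processing notes name TopHat2 2.0.10, HTSeq 0.6.1 and bcl2fastq 2.18.0.12. Not given in the sources used here are the strand setting, counting mode, annotation and genome build. The 5 summary rows stayed out of library sizes. Reads with several alignments (7.93, 7.52 and 7.99% of counted reads in replicates 1 to 3) are in no gene's count.

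From these counts, CPM was computed in R 4.3.3 by edgeR 4.0.16, whose TMM factors were 0.978, 1.02 and 0.998. A negative binomial Pearson statistic with edgeR's trended dispersion was set against chi-square with 2 degrees of freedom for genes with 10 or more reads in every library, adjusted by Benjamini-Hochberg over all 10434. Ratios used log2(CPM + 0.5), with exact intervals for reads from scipy 1.17.1. All 10 symbols were matched in RefSeq ARS-UCD2.0, used only for names and neighbours. With no exonic lengths at hand, the planned division by length was not made. Factor genes, gene lists and pairs were chosen with earlier results of these data known. Named were all factor genes, the 4 highest of each list, list genes below 1 CPM where 6 or fewer, and the 3 genes nearest to EGR1. CNN1, TAGLN, FHL1, ZFP36, DUSP1, MAPK3 and MAPK8 were added after their values were seen. Some list genes are not reported here. Alternatives were other scalings, filters, thresholds and pseudocounts, and leaving out each replicate.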

Additional observations from a re-analysis of the deposited data

How the results depend on the processing

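The number of factor genes at the set level stayed at 9 of 10 with DESeq2 size factors, with library size only, at 0.5 or 2 CPM, and without replicate 1, 2 or 3. The number more variable than the trend stayed at 0 under the same scalings and omissions, with no filter on low counts and with a common dispersion, where 0 to 6 genes of the whole table were called. For JUNB the adjusted p ranged from 0.288 to 1.00 and the unadjusted p from 0.00185 to 0.0378 over these edgeR fits. The 8 ratios between factor genes had the same sign in every library, so leaving out a replicate could not turn them, and their sign was the same at pseudocounts of 0.1 and 1 CPM. Mean levels of JUNB ranged from 18.2 to 37.5 CPM and of FOSL2 from 16.8 to 27.3 CPM when each replicate was left out, and of FOSB, on few reads, from 0.0595 to 0.198 CPM. With the other scalings, mean JUNB was 28.2 and 28.4 CPM. No paired analysis was possible because the samples form 1 group. Genes with few reads, FOSB above all, are limited by depth, and the 3 replicates limit the test of spread.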

Other observations

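Of the genes upstream of SRF, ROCK1 and ROCK2, kinases through which RHOA acts on actin, had the opposite order of libraries to the factor genes. ROCK1 stood at 485, 248 and 167 CPM in replicates 1 to 3 and ROCK2 at 1171, 617 and 436 CPM. In the edgeR-based test of spread their unadjusted p was 0.00156 and 0.00188, and their adjusted p was 0.277 and 0.288, so neither passed. Over the whole table, 9.06% of genes tested were higher by 2-fold or more in replicate 3 than in replicate 1, and 9.12% were lower by as much.

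Regulators of AU-rich messages, a class to which FOS and other immediate early messages belong, had 6 of 6 genes measured. HNRNPD (497 ± 60.7 CPM), ZFP36L1 (114 ± 20.3), ZFP36L2 (77.5 ± 32.3) and ELAVL1 (60.4 ± 5.57) were the highest (SD, n = 3). ZFP36L2 stood at 114, 65.5 and 52.9 CPM, against the order of its relative ZFP36.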
